A study of Sus scrofa with 12 samples.

Results

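Recurrent new isoforms of annotated genes were studied in 12 Iberian pigs, 6 in each of the Tough and Tender groups, from *Longissimus dorsi*, a muscle of the loin. An intron chain, the ordered set of splice junctions of an assembled transcript, was counted as a recurrent new isoform where it met all of the following conditions. It shared at least 1 junction with an annotated Sscrofa11.1 transcript on the same strand, it equalled no annotated chain, it was no contiguous part of one, and it was assembled in 6 or more of the 12 libraries. The members were thus selected on their junctions and on the number of libraries that held them, without regard to group. The comparison of shares between the groups rests on the same assembly calls, so selection and test are not separate measurements. A chain held by most libraries of 1 group and few of the other can reach the minimum and also differ in share. Of 86815 multi-exon chains assembled in any library, 1234 met the conditions, in 1077 host genes. All animals were castrated males fattened outdoors on acorns and grass, and each gave 1 library of paired-end reads from total RNA of the muscle. The animals had been chosen for extreme breeding values for shear force, and shear force was 7.32 to 10.63 kg/cm2 in Tough animals against 2.18 to 3.43 kg/cm2 in Tender animals. Neither the lane nor the fattening batch of an animal is in the labels.

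Splicing removes introns between a donor site, usually GT at the start of the intron, and an acceptor site, usually AG at its end. A gene can yield several isoforms by skipping an exon, by using another donor or acceptor, by starting or ending at another exon, or by keeping an intron. In skeletal muscle, many proteins of the sarcomere, of the calcium release machinery and of the membrane skeleton are made as muscle isoforms that differ from those of other tissues. An isoform is called new here only in the sense that its chain is not in the NCBI annotation of the pig genome, Release 106, and may be in another annotation such as Ensembl, so the term describes the annotation as much as the muscle.

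The sequences that follow show the main kinds of change, all from Sscrofa11.1 and read 5′ to 3′ on the strand of the gene. For whole exons, capitals mark the exon and lower case the 10 bases of intron on each side. The first pair is from *SLC25A3*, the phosphate carrier of the inner mitochondrial membrane, where an exon of 125 bases stood in for the annotated one in every library.
SLC25A3 new exon, chr5:85290403-85290547, minus strand: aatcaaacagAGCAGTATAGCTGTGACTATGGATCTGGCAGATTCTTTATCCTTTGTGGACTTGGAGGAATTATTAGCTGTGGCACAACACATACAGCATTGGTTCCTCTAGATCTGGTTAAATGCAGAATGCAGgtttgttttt
SLC25A3 annotated exon, chr5:85290122-85290262, minus strand: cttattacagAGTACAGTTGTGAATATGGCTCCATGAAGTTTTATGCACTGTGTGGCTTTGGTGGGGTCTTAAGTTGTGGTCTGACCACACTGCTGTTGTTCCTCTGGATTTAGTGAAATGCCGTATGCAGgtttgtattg
The next pair shows annotated coding exons that were left out, of 47 bases in *JSRP1* and of 93 bases in *DYSF*.
JSRP1 skipped exon, chr2:76421831-76421897, minus strand: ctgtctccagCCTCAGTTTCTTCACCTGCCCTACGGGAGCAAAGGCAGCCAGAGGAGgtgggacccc
DYSF skipped exon, chr3:71191615-71191727, minus strand: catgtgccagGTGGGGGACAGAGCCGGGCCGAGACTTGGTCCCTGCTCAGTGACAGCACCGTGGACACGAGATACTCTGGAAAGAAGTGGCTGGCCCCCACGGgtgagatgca
A further pair shows exons that the annotation lacks, of 113 bases in *RBM24* and of 28 bases in *MYL1*, the latter without flanking bases.
RBM24 new exon, chr7:13130606-13130738, plus strand: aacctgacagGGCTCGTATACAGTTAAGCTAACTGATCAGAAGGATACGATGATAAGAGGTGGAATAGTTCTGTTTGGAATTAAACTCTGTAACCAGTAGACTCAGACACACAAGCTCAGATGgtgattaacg
MYL1 new exon, chr15:113050210-113050237, minus strand: ATCGAGTTCTCTAAGGAACAGCAGGATG

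The remaining sequences are splice sites, with the first or last 2 bases of the intron in capitals. A donor is shown with 8 exon and 10 intron bases, and an acceptor with 18 intron and 8 exon bases. They were chosen because the new site lies close to an annotated one (*BAG3*, *YBX1*, *CAMK2D*) or because the junction lacks the usual GT and AG (*TCEA3*, *RPL32*).
BAG3 new donor, chr14:129510818-129510835, plus strand: gccccaagGTaagcggga
BAG3 annotated donor, chr14:129511004-129511021, plus strand: tcccagagGTcagtgaag
YBX1 new acceptor, chr6:168717165-168717190, minus strand: cgttttcttcttttgcAGtttagtca
YBX1 annotated acceptor, chr6:168717160-168717185, minus strand: tcttcttttgcagtttAGtcatccac
CAMK2D new acceptor, chr8:109172089-109172114, plus strand: actctcattctgcagcAGccaagagt
CAMK2D annotated acceptor, chr8:109172086-109172111, plus strand: tttactctcattctgcAGcagccaag
TCEA3 new donor, chr6:81279975-81279992, minus strand: aagatcatATccttgagc
TCEA3 annotated donor, chr6:81279977-81279994, minus strand: cgaagatcATatccttga
RPL32 new donor, chr13:68787585-68787602, minus strand: gttcccttTTcaactgta
RPL32 new acceptor, chr13:68787455-68787480, minus strand: gttaagtccttttcccTTttcaactg

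Across the series, the markers of skeletal muscle were abundant in every library, with a sum over 11 of 12 markers between 27850 and 54090 FPKM. Myoglobin (*MB*) had no assembled transcript in any library and *CKM* had none in 4. The deposited transcript records hold no read counts. The paper lists read numbers per sample in its supplement, but these were not used here. Depth was followed only through the coverage that the authors deposited for each transcript. Median coverage of the recurrent new isoforms where assembled was 18.76 to 23.26 in the Tough libraries, against 17.48 to 21.65 in the Tender libraries. No counting error can be given.

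Most new chains were seen once, and those that recurred were fewer but took a larger part of their gene. A single library held 20350 of the new isoforms, while 264 were assembled in exactly 6 libraries and 181 in all 12. New isoforms were 35.9% of the chains of every class found in 1 library and 4.77% of those found in 12. The rule fixed the lower bound: an isoform of *KARS*, the lysyl-tRNA synthetase, was inside with 6 libraries and a mean of 34.36 FPKM, and a chain of the small heat shock gene *HSPB8* was outside with 5 libraries and 214.7 FPKM. The 361 new isoforms in 5 libraries had a median share of gene FPKM of 15.35%, beside 18.07% for those in 6 and 75.56% for those in 12. A chain not assembled in a library counts as 0 there, so the share grows with the number of libraries by construction.

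**Figure D1:**
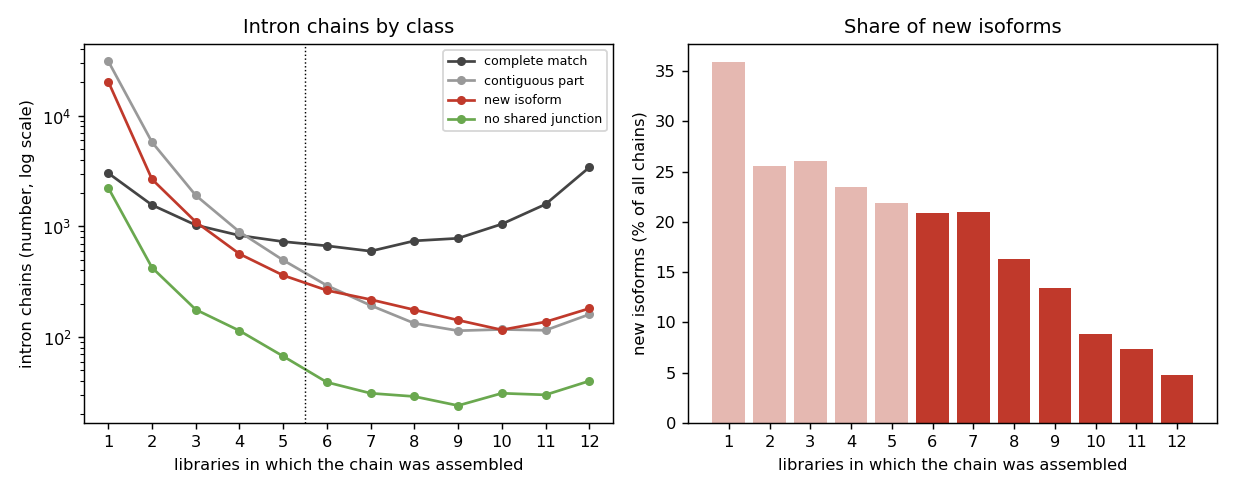
Left, number of intron chains (log scale) against the number of libraries in which a chain was assembled, for complete matches, contiguous parts of annotated chains, new isoforms and chains with no shared junction. The dotted line marks the minimum of 6 libraries. Right, new isoforms as a percentage of all chains, with the recurrent ones in dark red, falling from 35.9% at 1 library to 4.77% at 12.

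Host genes were mostly protein-coding genes with few annotated isoforms. Of the 1234 isoforms, 97.2% had a protein-coding host and 29 a long non-coding host. They fell in 12.1% of the 8908 genes that had any chain in 6 or more libraries. Most hosts (939) had 1 recurrent new isoform, 120 had 2 and 18 had 3 or more. *RERE*, a transcriptional corepressor, led with 4. The annotation held a single chain for 56.4% of the hosts, against 34.8% of the other 7831 genes. In 401 hosts (37.2%) no library held a complete match to an annotated chain, and in 465 (43.2%) a complete match recurred in 6 or more libraries.

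Genes whose annotated exons are drawn with a small break were often hosts. The annotation splits an exon by a gap under 20 bases, too short for an intron, commonly where a transcript and the genome sequence differ. Of 844 genes with such an exon and a recurrent chain, 40.8% were hosts, against 9.08% of 8062 genes without one. A complete match recurred in 55.7% of the former and in 88.9% of the latter. Only 18 of 1260 distinct new junctions (1.43%) lay within 20 bases of such a break. *BAG3* and *SLC25A3* are examples, each with a break of 2 bases in the exon beside its new site. These shares are descriptions over genes, and the part of the genome sequence in them was not tested.

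New donors and acceptors were the most common change. Each isoform was given 1 leading kind in a fixed order. A new donor or acceptor led in 488 isoforms (39.5%), a new first or last exon in 217 (17.6%), exon skipping in 203 (16.5%) and a new internal exon in 121 (9.81%). A new combination of annotated junctions led in 96, junctions of different annotated gene entries in 68, and a retained intron in 36. The median of the mean share of gene FPKM was 39.86% for new donors or acceptors and 24.21% for exon skipping. Retained introns led in no isoform that was assembled in all 12 libraries, and the most widely assembled of them reached 11.

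**Figure D2:**
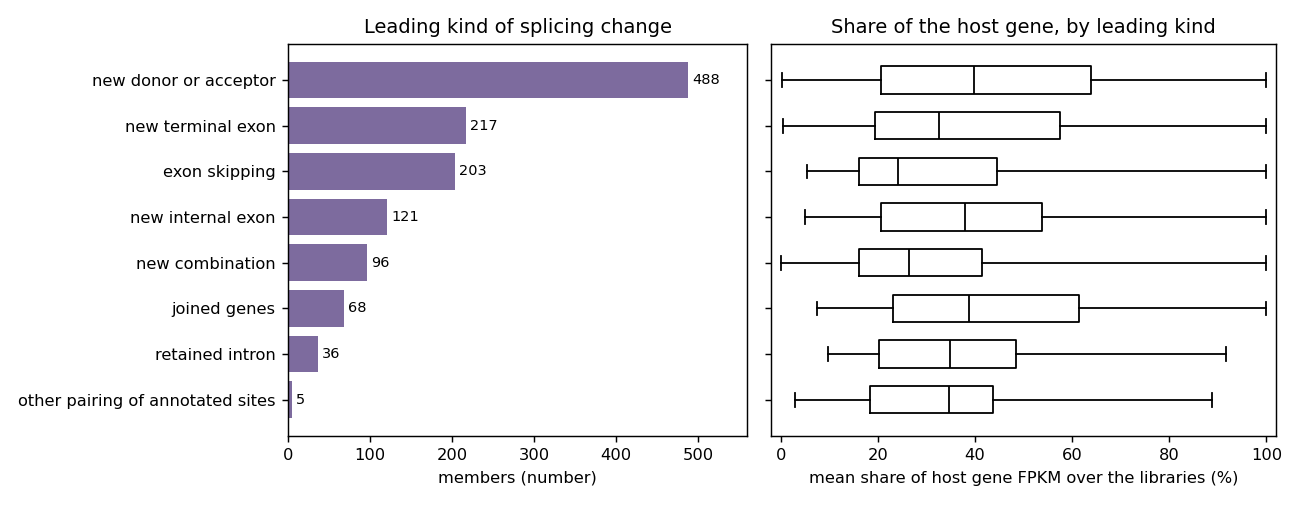
Left, number of recurrent new isoforms by leading kind of splicing change, from 488 with a new donor or acceptor to 5 with another pairing of annotated sites. Right, mean share of the host gene's FPKM over the libraries for the same kinds, with the box from the first to the third quartile, the line at the median and whiskers to the extremes. The boxes overlap among all kinds.

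Many of the junctions with both sites new added an exon ahead of the annotated start. Of 351 such distinct junctions, 164 (46.7%) were the first intron of their isoform and 29.1% the last. In 124 of the 164, every annotated start of the gene lay downstream of the new donor. In 20 of the 164 the second exon began at the very base where an annotated transcript begins, and in 46 (28%) within 10 bases of it. The chaperonin subunit *CCT7* and the ribosomal protein gene *RPL27* matched to the base, and the malate dehydrogenase gene *MDH1*, the carnitine palmitoyltransferase gene *CPT1A* and the troponin C gene *TNNC2* were 1 base off. Over all 1260 distinct new junctions, 56.7% lay within the coding region of the host, 23.3% before it and 6.51% after it.

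New sites close to an annotated site were more often acceptors than donors. Of 266 new acceptors paired with an annotated donor, 98 lay within 100 bases of the annotated acceptor, and 54.1% of those distances were a multiple of 3. Of 387 new donors, 66 lay within 100 bases and 36.4% of the distances were a multiple of 3. Exactly 3 bases separated 28 new acceptors (10.5%) from the annotated one, and only 2 new donors. In 22 of the 28 the genome reads AG at both places, the tandem acceptor known as NAGNAG. Of 211181 annotated acceptors, 6.7% have a second AG at 3 bases. The 28 were picked by a called acceptor at that distance, and most called acceptors end in AG. The 22 of 28 therefore cannot be compared with this percentage. *CAMK2D*, a calcium and calmodulin dependent kinase, is one of the 22, and its new acceptor shortens the exon by 3 bases.

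**Figure D3:**
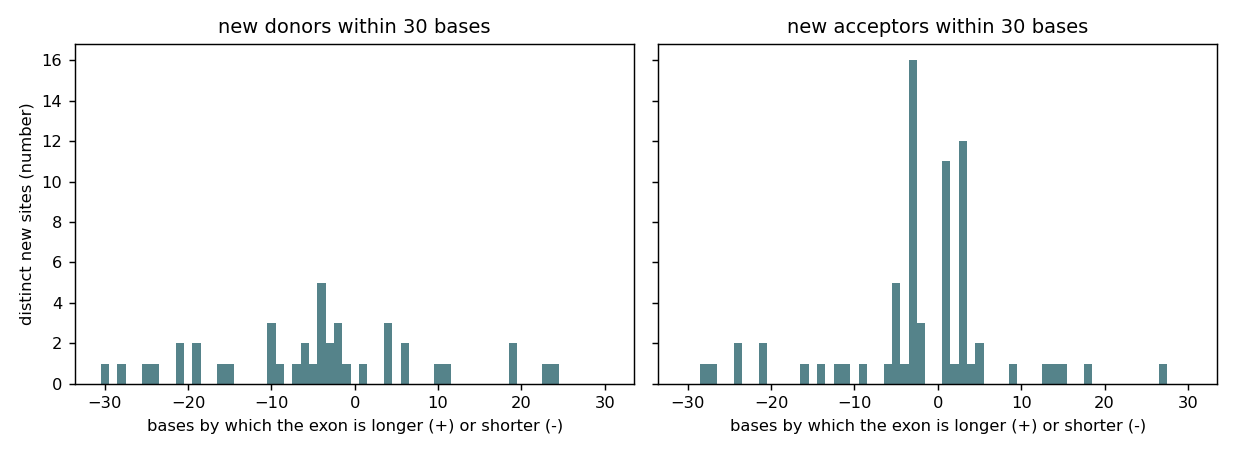
Number of distinct new donors (left, 41 sites) and new acceptors (right, 70 sites) within 30 bases of the annotated site that pairs with the same partner, against the number of bases by which the exon becomes longer (positive) or shorter (negative). Among acceptors, 28 sites lie exactly 3 bases away, 16 on the shorter and 12 on the longer side.

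New internal exons were mostly short, and about as many had a length that was a multiple of 3 as did not. The 133 distinct new internal exons had a median length of 96 bases, against 123 for annotated internal coding exons. A multiple of 3 was found for 54.1% of them and for 41% of annotated internal coding exons. Of 58 that lay between coding ends of the flanking exons, 36 (62.1%) were a multiple of 3, and 27 of the 36 held no stop codon in frame. Of 159 distinct skips of coding exons, 86 (54.1%) removed a multiple of 3 bases.

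Most new junctions carried the usual splice signals, but fewer than in the annotation. GT-AG was found at 88.2% of the 1260 distinct new junctions, GC-AG at 2.46% and other pairs, none of them AT-AC, at 9.37%. For annotated introns the values were 98.7%, 0.876% and 0.332% for pairs other than GT-AG, GC-AG and AT-AC. All 44 junctions that joined sites of different gene entries and 203 of 205 skipping junctions were GT-AG, whereas 85 of 351 with both sites new had other pairs. In all, 129 isoforms (10.5%) had a junction of other pairs, 8.29% of those in all 12 libraries and 10.2% of those in 6. At 24 junctions with both sites new, the intron was an annotated one of the same length shifted by up to 10 bases, and none of the 24 was GT-AG. *TCEA3*, a transcription elongation factor, is such a case, with an AT-AT intron shifted by 2 bases from an annotated AT-AC intron. Repeated bases at both ends of the intron, along which a junction can slide without changing the joined sequence, reached 10 or more at 7 of 118 junctions with other pairs and at 4 of 1142 with usual pairs. The TT-TT junction of *RPL32*, in the sequence after the coding region, had the repeat visible in both of its printed sites, of 41 bases in all.

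Where a recurrent new isoform was assembled, its median share of the gene was 49.07% to 51.87% in the Tough libraries, against 48.47% to 50% in the Tender libraries. Over all 12 libraries, with 0 where not assembled, the median of the mean share was 33.81%, with quartiles of 18.96% and 57.16%, and the median of the mean level was 1.646 FPKM. Complete matches assembled in 6 or more libraries had a median share of 70.81%. A mean share of 50% or more was reached by 394 isoforms, and 33 took 100% in every library with a transcript of the gene. None of those 33 hosts had a complete match in any library. Over all pairs of an isoform and a library with a transcript of the host, the isoform was not assembled in 27.5%, was the sole transcript of its gene in 15.8% and stood beside others in 56.8%.

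Of the isoforms with 100% of their gene in all 12 libraries, those with the highest level were in genes of ribosomes, energy metabolism and muscle structure. *RPL27* reached a mean of 395.9 FPKM, *RPL32* 134.9 FPKM and *JSRP1* 127.4 FPKM. *BAG3*, a cochaperone of the Z-disc, reached 113.3 FPKM with a donor 186 bases upstream of the annotated one. *PSMD11* of the proteasome reached 97.19 FPKM and *MDH1* 96 FPKM. *CCT7* (57.62 FPKM), *TCEA3* (50.64 FPKM) and *PSTPIP2* (43.96 FPKM), which encodes a membrane-binding adaptor, were lower. Ribosomal protein genes have many processed copies, so their levels are uncertain.

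Isoforms of contractile genes were among the most abundant. *MYL1* encodes the essential light chains of fast myosin, which in other mammals arise from alternative first exons. Its recurrent new isoform (chr15:113038180-113063335, minus strand) began at a first exon upstream of the annotated first exon and held the 28-base exon before it joined the annotated chain. The level was 2352, 1834, 1883, 2203, 1809 and 2488 FPKM in Tough libraries 1 to 6 and 1777, 1770, 2329, 1679, 2026 and 1406 FPKM in Tender libraries 1 to 6. Its share of gene FPKM was 30.84% ± 2.241 (SD, n = 6) in the Tough group and 30.17% ± 6.349 (SD, n = 6) in the Tender group. The groups overlapped and the exact permutation p of the shares was 0.8182.

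The slow troponin I gene *TNNI1* had an isoform in all 12 libraries at a mean of 658 FPKM, with a new acceptor in the coding region and the unusual pair GT-CC. The exon after that acceptor begins with tcagagaa, so an AG lies a few bases past the called end. Which of these ends is used was not tested. The share of the isoform was 39.34% to 100% in the Tough libraries, against 34.76% to 100% in the Tender libraries. The fast troponin C gene *TNNC2* had an isoform in 7 libraries, where its share ran from 6.012% to 100%. For *MYH7*, the slow myosin heavy chain, an isoform in 11 libraries joined exons of the neighbouring myosin gene. Its share where assembled was 27.89% to 37.81% in 5 Tough libraries and 28.43% to 38.41% in 6 Tender libraries. The cardiac and slow myosin genes are near-identical neighbours, so reads may have been placed in either, and the level of this isoform is uncertain.

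At the Z-disc, 5 of 30 listed genes with an assembled chain were hosts. *LDB3*, which anchors proteins to actinin, had an isoform with a new last exon at 727.8 to 1591 FPKM in the 10 libraries where it was assembled, with shares of 70.78% to 97.16%. It was not assembled in Tough 6 and Tender 6. *ACTN2*, which cross-links thin filaments, had an isoform in 9 libraries whose share was either between 34.06% and 37.32% or 100%. The new junction of this isoform had both sites new and the unusual pair GC-AT. *PDLIM7*, a scaffold protein, had an isoform in 7 libraries at 7.085% to 71.03%.

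The median share of the isoforms was 52.12% for calcium handling and 34.06% for the membrane and cytoskeleton. *JSRP1* binds the dihydropyridine receptor at the junction of the sarcoplasmic reticulum, and its isoform without the 47-base exon was the sole transcript in every library, at 104.8 to 139.2 FPKM in the Tough group and 96.23 to 183.6 FPKM in the Tender group. *ASPH*, whose gene also encodes the reticulum proteins junctin and junctate, had a new combination of annotated junctions with 95.1% to 97.92% in the Tough group and 65.93% to 98.53% in the Tender group. *ANK1* makes a small muscle ankyrin of the sarcoplasmic reticulum, and its isoform was assembled in 11 libraries at 83.73 to 268.1 FPKM. The isoform of *CAMK2D* was assembled in 7 libraries and that of plectin (*PLEC*) in 7, at 12.26% to 100% of its gene.

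*DYSF* encodes dysferlin, which acts in membrane repair. Its isoform without the 93-base exon, a length that keeps the frame, also held a new donor elsewhere in the gene. It was assembled in 6 Tough and 4 Tender libraries. Its share is that of the whole chain and not of the exon skip alone. The share was 55.99%, 86.4%, 100%, 31.59%, 100% and 49.77% in Tough libraries 1 to 6, and 78.77%, 48.1%, 61.64%, 0%, 0% and 44.69% in Tender libraries 1 to 6. The groups overlapped, and the exact permutation p was 0.1082.

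In energy metabolism the *SLC25A3* isoform was the main transcript of its gene. Mammals are known to carry a pair of mutually exclusive exons in this gene, one of them used in heart and skeletal muscle. The new exon and the annotated exon aligned with 85 of 127 columns identical (66.9%). The level was 604.5, 460.8, 412.1, 376.2, 450.3 and 224.1 FPKM in Tough libraries 1 to 6 and 414.8, 361.8, 396.5, 470.4, 506.6 and 552 FPKM in Tender libraries 1 to 6. The share was 100% in every library except Tough 6, where it was 72.86%.

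Other enzymes were less regular. *PRKAG3*, a regulatory subunit of AMP-activated kinase in white muscle, had an isoform in 11 libraries with shares of 18.68% to 100%. *GPI* of glycolysis was at 72.31% to 100% in 7 libraries, and *HADHB* of fatty acid oxidation, a retained intron, at 41.15% to 100% in 7. The new junction of the *GPI* isoform had both sites new and the unusual pair GG-CC.

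**Figure D4:**
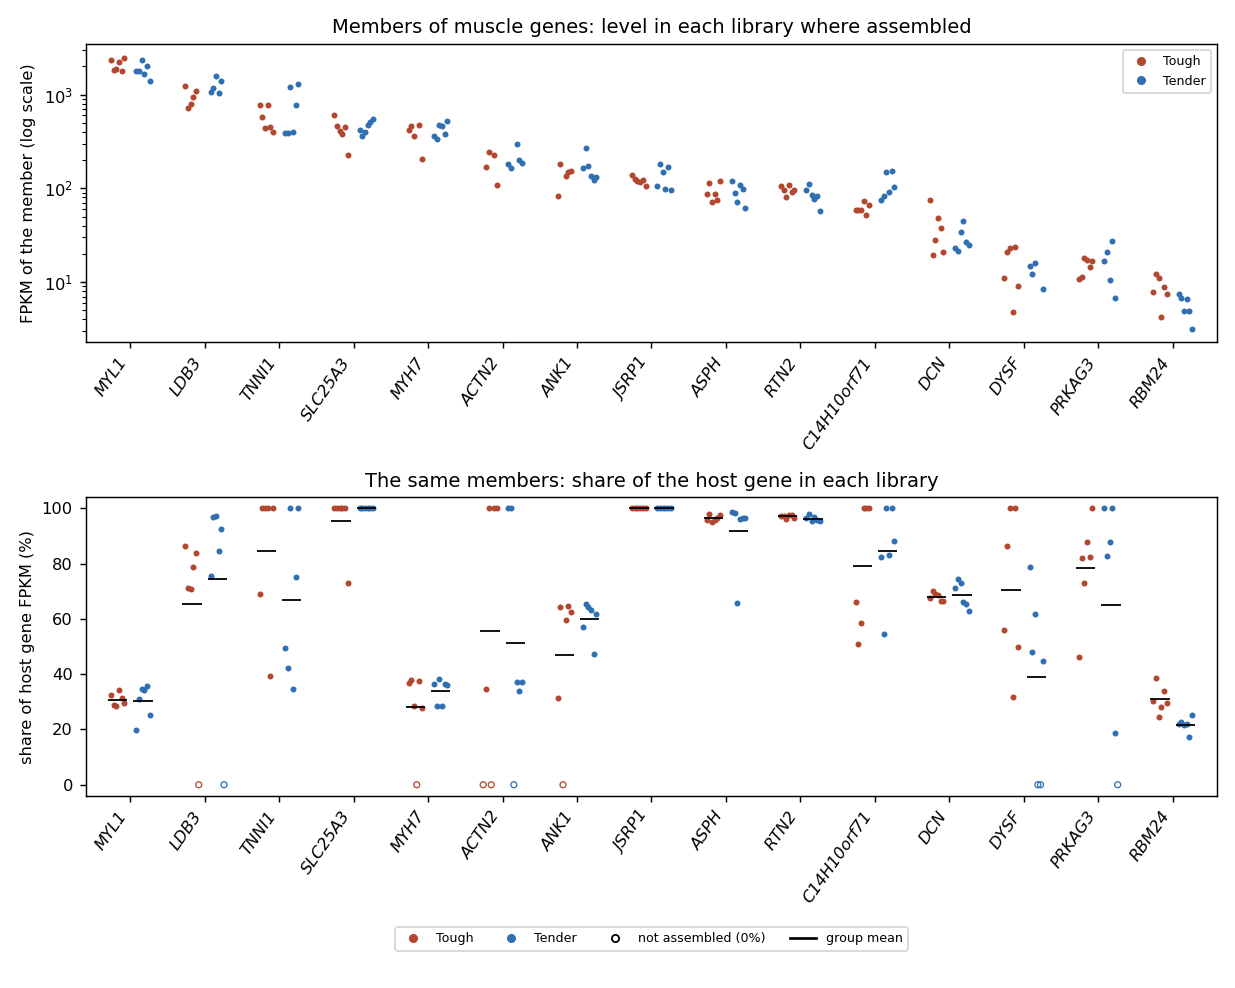
Level in FPKM (top, log scale) and share of host gene FPKM in percent (bottom) of recurrent new isoforms of 15 genes, 1 point per library, with Tough libraries in red and Tender libraries in blue. Open circles stand for libraries without the isoform and bars for group means of the 6 libraries. *JSRP1* lies at 100% throughout, *RTN2* between 95.41% and 97.86%, and *PRKAG3* between 0% and 100%.

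Matrix genes and regulators were hosts too. Decorin (*DCN*), a collagen-binding proteoglycan, had an isoform from a new first exon with a share of 68.01% ± 1.461 (SD, n = 6) in the Tough group and 68.8% ± 4.744 (SD, n = 6) in the Tender group. Fibrillin 1 (*FBN1*) had a new first intron in 5 Tough libraries, each at 100%, and in 3 Tender libraries at 23.13% to 100%, with an exact permutation p of 0.08009. The isoform of *SPARC*, a collagen-binding matrix protein, was in 4 libraries of each group.

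*YBX1*, an mRNA-binding protein, carried the 5-base shift of an acceptor after the coding region at 74.76% ± 3.026 (SD, n = 6) in the Tough group and 76.86% ± 4.4 (SD, n = 6) in the Tender group. *NFIX*, a transcription factor of fetal and adult muscle, was at 72.19% ± 5.451 and 71.23% ± 3.515 (SD, n = 6 each). *RTN2*, a reticulon, was at 97.08% ± 0.5688 and 96.34% ± 0.9421. The groups overlapped for all 3. *SNRNP70*, of the U1 particle that binds donors, was at 63.1% ± 14.84 and 67.59% ± 14.36. *BCAP31*, an endoplasmic reticulum protein, was at 41.53% ± 6.377 and 42.6% ± 4.188.

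Among the named isoforms assembled in every library, that of *RBM24* had the smallest exact p for the share. *RBM24* is a splicing regulator of heart and skeletal muscle, and the 113-base exon of its isoform holds a stop codon in frame. The share was 30.23%, 38.78%, 24.34%, 28.22%, 33.98% and 29.67% in Tough libraries 1 to 6 and 22.08%, 22.76%, 21.53%, 22.13%, 17.1% and 25.17% in Tender libraries 1 to 6. Only Tough 3 fell below the highest Tender library. The exact permutation p was 0.004329, but the limma fit over all chains gave a log2 difference of 0.63 ± 0.3577 (SE) with an adjusted p of 0.8428, so the difference failed the correction. These are bulk samples, in which fewer cells of a type and less RNA per cell cannot be told apart.

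The isoform of *C14H10orf71*, which skips an annotated exon of 93 bases before the coding region, had a lower level in every Tough library than in any Tender library. Its level was 59.35, 58.74, 58.05, 72.9, 52.1 and 66.94 FPKM in Tough libraries 1 to 6 and 75.91, 83.46, 148.7, 92.44, 153.4 and 103.3 FPKM in Tender libraries 1 to 6. The levels did not overlap, with an exact permutation p of 0.002165, the smallest that 6 against 6 allows. The limma fit gave a log2 difference in level of -0.79 ± 0.2004 (SE) and an adjusted p of 0.7063. The whole gene was at 82.68 ± 23.13 FPKM (SD, n = 6) in the Tough and 129.2 ± 26 FPKM (SD, n = 6) in the Tender group (exact permutation p = 0.01515), and the share of the isoform overlapped between the groups (exact permutation p = 0.6212).

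Between the groups, no recurrent new isoform passed the thresholds in either measure. The share was tested with limma as the log2 ratio of the isoform to the other transcripts of its gene, and the level as log2 FPKM, both with 0.5 FPKM added, over every chain with a mean above 0.5 FPKM. A call needed a p no higher than 0.05, a change of 1.5-fold and, after adjustment over all chains, a p no higher than 0.1. For the share, 0 of 1066 tested isoforms were called, beside 0.00548% of 18248 chains of every class, and the smallest adjusted p of an isoform was 0.4985. For the level, 0 of 1068 were called, beside 0 of 18345 chains, and the smallest adjusted p was 0.5574. Leaving out Tough 2, Tough 4 or Tender 2 gave 1, 1 and 2 calls in share, beside 4 of 18188, 4 of 18208 and 3 of 18212 chains of every class. Leaving out Tough 4 or Tender 2 gave 1 call each in level, beside 2 and 1 of 18345 chains. Isoforms not tested failed the filter on low values or had too few libraries with a transcript of the gene.

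At an unadjusted p of at most 0.05, 67 isoforms (6.29%) differed in share, beside 3.52% of all chains tested. Of them, 40 (3.75%) were higher in the Tough group, beside 1.72%, and 27 (2.53%) in the Tender group, beside 1.8%. In level, 65 isoforms (6.09%) reached it, beside 3.29% of all chains, with 36 (3.37%) higher in the Tough group, beside 1.41%, and 29 (2.72%) in the Tender group, beside 1.88%. Parts of annotated chains in 6 or more libraries reached it in 5.41% for the share and 6.35% for the level, complete matches in 3.85% and 2.73%, and chains in fewer than 6 libraries in 2.65% and 3.14%. The median log2 share difference was 0.05 for the isoforms and -0.03 for all chains. The groups did not overlap in share for 6 of 1066 isoforms (0.563%), beside 0.0877% of all chains. Of those 18248 chains, 8199 were in fewer than 6 libraries. With a transcript of the gene in every library, such a chain cannot separate the groups. The 2 percentages therefore cannot be compared directly.

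Assembly itself was alike in number. Between 863 and 917 of the isoforms were assembled in a Tough library and between 841 and 903 in a Tender library. More Tough than Tender libraries held 461 of them, more Tender libraries held 375, and 398 were equal. None was confined to 1 group, and 44 differed by 4 or more libraries.

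Exact permutation tests of the share were run for 72 named isoforms, and 12 of them had a p of at most 0.05. Isoforms named for the smallest p, in either direction, were picked in the same data that gave their exact p. These exact p-values are not corrected for that choice. Of the isoforms with the smallest p and a higher share in the Tender group, *RBM12* and *ACTB* led. *RBM12* encodes an RNA-binding protein, and its isoform skips an exon before the coding region. Its share was 52.33% in Tough 3 and it was not assembled in the other Tough libraries, whereas the Tender libraries had 80.23%, 100%, 57.5%, 70.6%, 69.31% and 100%. The groups did not overlap. The log2 difference was -2.63 ± 0.4882 (SE), with an adjusted p of 0.4985 by limma and an exact permutation p of 0.002165, at levels of no more than 1.952 FPKM.

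*ACTB*, the cytoplasmic actin of non-muscle cells, had an isoform with a 148-base intron after the coding region. Its share was 37.16% in Tough 4 and 0% in the other Tough libraries, and 27.32%, 51.83%, 43.36%, 36.72%, 47.32% and 52.33% in Tender libraries 1 to 6. Tough 4 lay within the Tender range. The log2 difference was -5.56 ± 1.046 (SE), with an adjusted p of 0.4985 by limma and an exact permutation p of 0.006494. Without Tough 4 the log2 difference was -6.60 with an adjusted p of 0.0002535 by limma, past the thresholds. Tough 4 was the only Tough library with the isoform. Leaving it out puts the whole Tough group at 0%, so this fit adds no support. Markers of other cell types overlapped between the groups, with summed fibroblast markers at 48.14 to 187.2 FPKM in the Tough and 48.98 to 104.9 FPKM in the Tender libraries, and their part in this difference was not tested.

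*CPT1A*, which brings fatty acids into mitochondria, showed its new first exon in 2 Tough libraries, at 61.79% and 100%, and in all 6 Tender libraries at 71.93% to 100%. The exact permutation p was 0.01732. *TMCC1*, a protein of the endoplasmic reticulum, had a new exon of 18 bases in 3 Tough libraries at 20.89% to 37.02% and in 6 Tender libraries at 31.75% to 55.23%, with an exact permutation p of 0.006494. *PTK2*, the focal adhesion kinase, had a new combination in Tough 1 at 16.17% and in 5 Tender libraries at 13.68% to 51.26%, with an exact permutation p of 0.02814. The adjusted p by limma was 0.8428 for these 3.

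Of those with a higher share in the Tough group, the fatty acid synthase gene *FASN* had the smallest p. Its new first intron was in 5 Tough libraries, each at 100% and between 1.947 and 6.008 FPKM, and not in Tough 2. Among the Tender libraries it was in Tender 5 alone, at 47.24% and 0.9019 FPKM. The log2 difference was 4.53 ± 0.9011 (SE), with an adjusted p of 0.558 by limma and an exact permutation p of 0.01515. Without Tough 2 the log2 difference was 5.28 with an adjusted p of 0.02804 by limma, past the thresholds. Tough 2 was the only Tough library without the isoform, so this fit adds no support. The level of the whole *FASN* gene gave an exact permutation p of 0.8333. Summed adipocyte markers ran from 2.462 to 17.48 FPKM in the Tough and from 3.867 to 13.48 FPKM in the Tender libraries, and their part was not tested.

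*ERI3*, an exoribonuclease, had an isoform at 74.37% to 100% in 6 Tough libraries and at 100% and 42.73% in Tender 2 and 4. Its new junction is a GC-AG intron of 20 bases, the shortest that the rule counts as an intron rather than a gap. It was the only 1 of 1260 new junctions under 30 bases, and whether it is a spliced intron was not tested. *LYRM1*, of the LYR motif family, skipped 2 exons of 310 bases in all at 20.72% to 29.59% in 6 Tough libraries and at 33.88% in Tender 2. The exact permutation p was 0.01515 for both. Without Tender 2, which held both isoforms, both passed the thresholds, with log2 differences of 8.47 for *ERI3* and 3.81 for *LYRM1* and a smaller adjusted p of 0.004167 by limma. Tender 2 was the only Tender library with the *LYRM1* isoform and had the highest Tender share of *ERI3*. These fits therefore add no support. *EFEMP2*, a fibulin of elastic fibres, skipped an exon of 118 bases at 23.62% to 32.25% in 6 Tough libraries and at 15.94% and 18.37% in Tender 2 and 5, and the groups did not overlap (exact permutation p = 0.002165). *ZNF185*, an actin-associated LIM protein, had a new first exon at 27.62% to 100% in 6 Tough libraries and at 58.38% and 21.15% in Tender 1 and 4 (exact permutation p = 0.004329). With all 12 libraries the adjusted p by limma was 0.8428 for these 4.

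**Figure D5:**
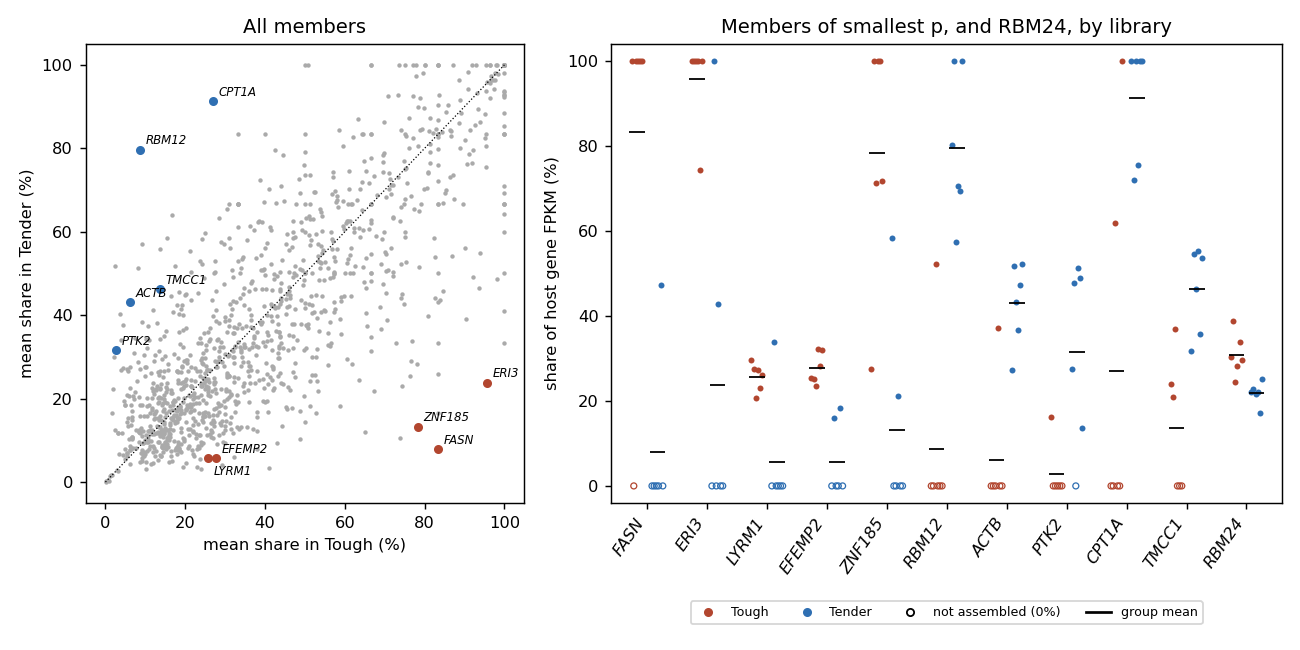
Left, mean share of host gene FPKM in percent in the Tough group against the Tender group for the recurrent new isoforms, with the 10 of smallest p named and the dotted line at equality. Right, share in each library for those 10 and *RBM24*, with open circles where the isoform was not assembled and bars at the group means. *RBM12* is at 0% in 5 Tough libraries and at 57.5% or more in the Tender libraries.

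The other isoforms without overlap, named after their values were seen, were those of *ECHDC1*, *PXMP2*, *ST6GALNAC2* and *OSBPL5*. *ECHDC1*, a metabolite-repair decarboxylase, was at 27.86% to 41.01% in the Tough and 0% to 20.48% in the Tender libraries. *PXMP2*, a peroxisomal membrane channel, was at 27.26% to 38.51% and 0% to 26.97%. *ST6GALNAC2*, a sialyltransferase, was at 0% to 22.46% and 25.51% to 35.08%, and *OSBPL5*, a lipid transfer protein, at 0% to 17.45% and 20.06% to 40.63%.

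Hosts with several isoforms showed them side by side. *RERE* had 1 isoform at 72.63% to 96.31% in 11 libraries, while its other 3 stayed at or below 32.56%. The 3 isoforms of *VARS*, the valyl-tRNA synthetase, were in 10, 10 and 9 libraries, and each held a new acceptor with the unusual pair GT-CA. *VEGFA*, the endothelial growth factor, had an isoform, singled out after its values were seen, in 2 Tough libraries at 17.56% and 15.58% and in 6 Tender libraries at 14.52% to 25.42%, with an exact permutation p of 0.006494 and an adjusted p of 0.8428 by limma. Summed endothelial markers were 29.67 to 84 FPKM in the Tough and 29.83 to 59.47 FPKM in the Tender libraries, and their part was not tested. *RGS3*, which limits G protein signalling, and *RAPGEF1*, an activator of Rap, had 3 isoforms each.

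The 68 isoforms that joined exons of different annotated gene entries had a median share of 38.72%. For *B2M*, *PLCD4* and *C4BPA* the joined entries carry the same symbol. Some other pairs, such as *TUBA1A* with *TUBA1B* and *SLA-6* with *SLA-7*, belong to the same gene family. Whether reads were misplaced between the entries was not tested. The most abundant of those in all 12 libraries, another isoform of *MYH7*, had a mean of 226.1 FPKM and a mean share of 19.15%. Those of *SSSCA1* (mean of 10.67 FPKM) and *WDR45* (mean of 19.1 FPKM) were less abundant but had higher shares. *SSSCA1* joined with *FAM89B* was at 86.83% to 100% in the Tough group and at 100% in every Tender library (exact permutation p = 0.06061). *WDR45*, an autophagy protein, joined with *PRAF2* was at 100% in all libraries but Tough 3 (83.98%) and Tender 4 (64.85%). *EIF4A1*, a translation initiation helicase, joined with *CD68* in 6 libraries. *CD68*, a macrophage marker, was listed at 0 in 8 libraries.

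Over the muscle and meat quality gene lists, 44 of 285 genes with an assembled chain (15.4%) were hosts. The 12.1% given above is of the 8908 genes with a chain in 6 or more libraries. The bases differ, so the list shares cannot be compared with it directly. The lists held 54 of the isoforms, with a median share of 34.28%, and 53 were tested. At an unadjusted limma p of at most 0.05 there were 2 of the 53, *DYSF* and *FBN1*, beside 3.52% of all chains, and 0 were called. Both had a higher share in the Tough group, and the exact permutation p of both was above 0.05. The share of hosts was highest for collagen and matrix genes (5 of 23, 21.7%) and splicing regulators (7 of 34, 20.6%). The splicing regulators were *CELF1*, *HNRNPH1*, *RBM24*, *SNRNP70*, *SRSF1*, *SRSF11* and *SRSF6*, and 0 of their 9 isoforms reached an unadjusted p of 0.05 by limma in share, although *RBM24* did by the exact permutation test (0.004329).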

How the data were processed

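RNA from *Longissimus dorsi* of 12 Iberian pigs (6 Tough, 6 Tender, 1 library per animal) was sequenced, and the authors used Trim Galore for trimming, aligned with TopHat2 2.1.0 and assembled each library with Cufflinks 2.2.1. The deposited transcript records hold FPKM and coverage per transcript, normalized by the authors, and a deposited score, which was not used. No read counts were used, so depth was followed only through the deposited coverage, and no interval on counts is given. The authors compared the assemblies with Ensembl annotation by Cuffcompare, and that annotation was not used here. Whether an annotation guided alignment or assembly is not given in the sources used here.

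Intron chains were compared with 74328 multi-exon transcripts of NCBI Annotation Release 106 on Sscrofa11.1, merging gaps under 20 bases in both. A transcript was assigned to the gene with most shared junctions or, with none shared, by at least 50% exonic overlap, and transcripts outside the chromosomes were left out. Share is the FPKM of the chain over the summed FPKM of the gene's transcripts. A chain not assembled counts as 0, and a library with no transcript of the gene was left out for that gene's share. Sequences were read from the RefSeq genome with pysam 0.24.0. Tests used limma 3.58.1 in R 4.3.3 (trend, Benjamini-Hochberg adjustment over all chains tested, at least 3 libraries per group, checked on simulated data) and exact two-sided permutation over the 924 splits, whose smallest p is 0.00216. P-values measure the spread between animals.

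Named isoforms were the 10 of highest share in all 12 libraries (host mean of 10 FPKM or more, ties by FPKM), the 5 of smallest p in each direction (host mean of 1 FPKM or more), up to 3 hosts per gene list, 2 per kind of change in all 12 libraries, the 5 hosts with most isoforms (ties by host FPKM) and 1 on each side of the library minimum, without LOC symbols and with 1 isoform per host. A few isoforms that these rules name are not reported here. Members and lists were chosen with earlier results of these data known. Alternatives covered the library minimum, the annotation subset, pseudocount, filters, scaling, a replicate block and leaving out each library.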

Additional observations from a re-analysis of the deposited data

Results flagged for a closer look

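Of 74 groups of 6 libraries examined, 13 held a library far from the other 5 by Dixon's criterion, which chance meets in about 1 in 20 groups. All 13 were groups of shares of gene FPKM. Many of these groups hold shares of 0% or 100%, for which any single departure meets it.

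In the Tough group, *ACTB* was at 37.16% in Tough 4, *PTK2* at 16.17% in Tough 1 and *RBM12* at 52.33% in Tough 3, each with 0% in the other 5. *ERI3* was at 74.37% in Tough 5, *SLC25A3* at 72.86% in Tough 6 and *WDR45* at 83.98% in Tough 3, each with 100% in the other 5. *FASN* was at 0% in Tough 2 and 100% in the others. *NFIX* was at 82.62% in Tough 3, with 67.87% to 73.4% in the others.

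In the Tender group, *FASN* was at 47.24% in Tender 5 and *LYRM1* at 33.88% in Tender 2, each with 0% in the other 5. *WDR45* was at 64.85% in Tender 4 with 100% in the others. *ASPH* was at 65.93% in Tender 3 with 96.15% to 98.53% in the others, and *ZNF185* at 58.38% in Tender 1 with 0% to 21.15% in the others.

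Outside the comparisons, 62 gaps under 20 bases inside assembled exons recurred in 6 or more libraries. Of them, 57 were of 2 bases, 8 equalled a gap in the annotation, and 24 lay in genes that host a recurrent new isoform.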

How the results depend on the processing

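The number of recurrent new isoforms was 1234, and 1595, 970 and 181 with minimums of 5, 7 and 12 libraries. It was 958 against curated transcripts, 1162 with a tolerance of 10 bases and 1086 to 1116 without 1 library. A pair of choices was added after seeing the data: there were 1229 with gaps kept, and 1105 had usual splice signals at every new junction. For the share, 0 isoforms were called except on leaving out 1 library, which gave 0 to 2: 1 without Tough 2 (*FASN*, log2 difference 5.28, adjusted p 0.02804 by limma), 1 without Tough 4 (*ACTB*, -6.60, adjusted p 0.0002535 by limma) and 2 without Tender 2 (*LYRM1*, 3.81, with the smaller adjusted p, 0.004167 by limma, and *ERI3*, 8.47). For the level it gave 0 to 1: *ACTB* without Tough 4 and *LYRM1* without Tender 2. For *FASN*, *ACTB* and *LYRM1*, the library left out is the one that stands apart from its group. These calls follow from removing the contrary library and add no support. Isoforms at unadjusted p of at most 0.05 numbered 45 to 98 for the share, against 67, and 37 (libraries without the chain left out) to 82 for the level, against 65. Replicate numbers are only names: deviations of same-numbered libraries correlated at -0.0379 to 0.0144, 0 of 12 libraries correlated best with its own number, and with a replicate block 69 (share) and 67 (level) isoforms reached it and 0 were called. Read numbers per library were not used, and a chain not assembled may be present below detection.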
